A study of Homo sapiens with 12 samples.

Results

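The amino acid transporters described here are the products of 10 genes: SLC7A5, SLC3A2, SLC7A1, SLC7A6, SLC7A11, SLC1A3, SLC1A4, SLC1A5, SLC38A1 and SLC38A2. They were chosen by symbol, through the Ensembl identifier of each row of the deposited count table, in a list drawn up with earlier results of these data known. Each of the 10 had a single row among the 62656 rows of the table, and all 10 were among the 17470 genes with enough counts to test.

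Messenger RNA was sequenced from a human podocyte line, a model of the epithelial cell that covers the glomerular capillary of the kidney. All 4 groups carry a temperature-sensitive SV40 large-T antigen, which lets the cells grow at 33 °C, and differentiated over 12 days at 37 °C. Each line stably held a doxycycline-inducible (Tet-On) pCW vector for eGFP, as the control, or for YAP5SA fused to FLAG and NLS sequences. YAP5SA is an active mutant of YAP, a co-activator of transcription, that escapes inhibition by the Hippo kinases. There were 3 libraries in each of 4 groups: untreated GFP, GFP given doxycycline (0.1 µg/ml, 24 hours), untreated YAP5SA (uninduced), and YAP5SA given the same dose (induced). The sources used here do not say whether a line was a clone or a pool, or whether the numbered replicates were separate cultures. The p-values therefore measure only the spread between these libraries, which may be technical.

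Cells take up most amino acids through carriers of the solute carrier (SLC) families. SLC7A5, known as LAT1, exchanges large neutral amino acids such as leucine, and it reaches the plasma membrane only when joined by a disulfide bond to the glycoprotein SLC3A2, known as 4F2hc or CD98. SLC3A2 is also the partner of SLC7A6 (y+LAT2, which exchanges cationic for neutral amino acids) and SLC7A11 (xCT, which exchanges cystine for glutamate). SLC7A1 (CAT1) carries arginine and lysine and needs no heavy chain. SLC1A3 (EAAT1) takes up glutamate and aspartate, SLC1A4 (ASCT1) and SLC1A5 (ASCT2) exchange small neutral amino acids, the latter including glutamine, and SLC38A1 and SLC38A2 (SNAT1 and SNAT2) take up small neutral amino acids with sodium. Leucine that enters through SLC7A5 is one of the signals read by mTORC1, a kinase complex that controls growth, and several of these genes are known targets of the transcription factor ATF4 in amino acid shortage.

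Libraries held 24477592 to 25993413 counts. Levels are given in CPM (counts divided by library size, with the TMM scaling factors of edgeR), and changes as log2 fold changes with their standard errors (SE) from edgeR's quasi-likelihood fit, with calls made below a Benjamini-Hochberg adjusted p of 0.05. The construct was checked through YAP1, whose counts may come from the endogenous gene and from the transgene. It was at 1757, 1672 and 970 CPM in induced YAP5SA (replicates 1 to 3), against 220, 375 and 345 CPM in uninduced YAP5SA (log2 fold change 2.22 ± 0.38 SE, edgeR adjusted p = 0.00374). In GFP it was at 173, 333 and 321 CPM without doxycycline and at 177, 326 and 312 CPM with doxycycline. Replicate 1 was the lowest of its group in the 3 groups without induction, and replicate 3 was the lowest of the induced group. Of 10 podocyte markers, NPHS1, WT1 and PTPRO were below 1 CPM in every library, and the summed level of the 10 was 2852 to 3034 CPM with overlapping ranges in the 4 groups. ACTN4 was the largest part of that sum (1559 to 1759 CPM). Single markers moved in opposite directions between untreated GFP and induced YAP5SA: KIRREL1 from 518.5-552.1 to 383.0-390.1 CPM, and SYNPO from 400.3-446.9 to 499.6-550.0 CPM. Summed parietal epithelial markers (7 genes) were at 4073 to 4567 CPM, and mesangial and fibroblast markers (5 genes) at 1274 to 2727 CPM. The lists hold different genes in different numbers, so their sums do not rank the cell types. Summed markers of tubule (1.54 to 3.76 CPM), endothelium (0.595 to 1.66 CPM) and leukocytes (0.752 to 3.08 CPM) were low. In bulk RNA, fewer cells of a type and less RNA per cell cannot be told apart.

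SLC7A5, the light chain LAT1, had the highest level per kilobase of exon of the 10 members in every group, and its level stepped up between the groups. SLC7A5 (ENSG00000103257) lies on the minus strand of chr16:87830023-87869488 (GRCh38, GENCODE 29). Its level was 295, 274 and 236 CPM in untreated GFP and 281, 280 and 250 CPM in GFP with doxycycline. It was 733, 779 and 524 CPM in uninduced YAP5SA and 1118, 1456 and 1057 CPM in induced YAP5SA. The GFP groups overlapped, every uninduced YAP5SA library was above every GFP library, and every induced library was above every uninduced one. Replicate 3 was the lowest of each of the 4 groups.

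On induction SLC7A5 rose 1.78-fold, or by 0.83 ± 0.16 on the log2 scale (edgeR adjusted p = 0.0057). Between the uninduced YAP5SA line and the GFP line without doxycycline the difference was larger, 1.34 ± 0.16 on the log2 scale or 2.53-fold (adjusted p = 0.0014). With doxycycline in both lines SLC7A5 was 4.47-fold higher in the YAP5SA line (2.16 ± 0.17, adjusted p = 6.685e-06). Doxycycline in the GFP line gave 0.01 ± 0.16. The induction comparison shares the uninduced libraries with the comparison without doxycycline, and the induced libraries with the comparison with doxycycline, so these values are not independent. The difference between the responses of the lines to doxycycline, the interaction, was 0.82 ± 0.23 and missed the threshold (edgeR adjusted p = 0.0635). It passed with DESeq2 (adjusted p = 0.00101), with limma-voom (0.0374), with a stricter filter on low counts (0.0483) and with the replicate number as a block (0.0114). The replicate numbers did not meet the rule for pairing within the YAP5SA line, because of replicate 1 alone. The interaction also missed with RLE or upper-quartile scaling, with no filter on low counts and whichever library was left out.

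The 250 bases before the SLC7A5 start are shown because the gene carried the largest difference between the lines among the members, and those of SLC7A1 because it has, like SLC7A5, 1 window in the table and no annotated exon in it. The sequences are from RefSeq on GRCh38.p14, written 5′ to 3′ along the gene, at chr16:87869508-87869757 (minus strand) and chr13:29595689-29595938 (minus strand).
SLC7A5: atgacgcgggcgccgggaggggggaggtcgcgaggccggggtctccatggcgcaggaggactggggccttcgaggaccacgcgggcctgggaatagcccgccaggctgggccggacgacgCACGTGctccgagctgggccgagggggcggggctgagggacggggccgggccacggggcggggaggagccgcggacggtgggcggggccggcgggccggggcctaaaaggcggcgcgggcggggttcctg
SLC7A1: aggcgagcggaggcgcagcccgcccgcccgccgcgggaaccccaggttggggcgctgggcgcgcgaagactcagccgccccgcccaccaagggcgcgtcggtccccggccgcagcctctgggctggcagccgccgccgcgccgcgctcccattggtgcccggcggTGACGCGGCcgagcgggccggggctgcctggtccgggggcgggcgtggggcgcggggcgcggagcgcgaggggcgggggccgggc
Capitals mark matches to 5 motifs searched on both strands in 35116 such windows: the TEAD motif GGAATG (in 11.9% of windows), the ATF4-CEBP composite TGATGNAA (3.14%), the E-box CACGTG (6.34%), the AP-1 motif TGANTCA (6.57%) and the antioxidant response motif TGACNNNGC (10.9%). The SLC7A5 window held 1 match, the E-box CACGTG at bases -130 to -125 from the start. The SLC7A1 window held 1 match, TGACGCGGC, to the antioxidant motif at -85 to -77. Windows were found for 9 members, 17 in all. TEAD matches stood in 1 window of SLC1A3 and 1 of SLC1A5, and ATF4-CEBP matches (TGATGCAA) in another window of SLC1A3 and in that same window of SLC1A5. AP-1 matches stood in 1 window each of SLC1A3, SLC3A2 and SLC38A1, genes with more than 1 window. The one in SLC3A2, TGACTCA at -37 to -31, lies inside an antioxidant match at -37 to -29. Antioxidant matches were also in windows of SLC7A6, SLC1A3 and SLC1A5, and an E-box in one of SLC1A5. A match is a description of letters and not a measured binding site.

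**Figure D1:**
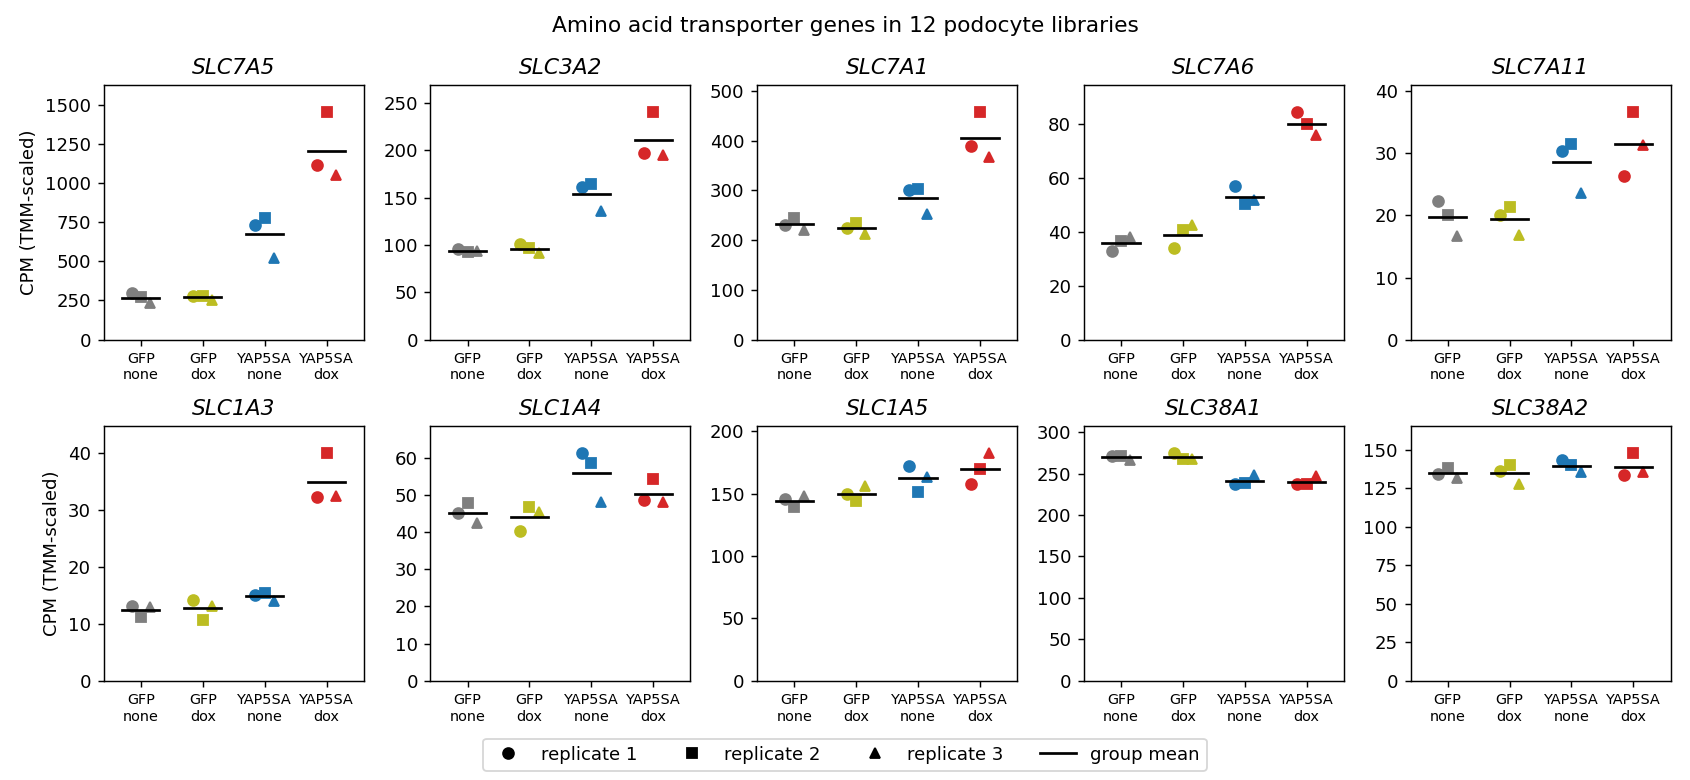
TMM-scaled CPM (vertical axes, linear from 0, 1 panel per gene) of the 10 transporter genes in each of the 12 libraries, grouped as GFP and YAP5SA without (none) and with doxycycline (dox). Symbols are replicates and bars are group means; for SLC7A5, SLC3A2, SLC7A1, SLC7A6 and SLC1A3 the 3 induced libraries lie above all others.

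SLC3A2, the heavy chain, followed the same order of groups as SLC7A5 over a smaller range. SLC3A2 (chr11:62856102-62888875, plus strand) was at 95.3, 92.7 and 93.8 CPM in untreated GFP and at 100.5, 96.7 and 91.2 CPM with doxycycline. In the YAP5SA line it was at 161.7, 164.7 and 135.7 CPM uninduced and at 197.0, 240.4 and 195.2 CPM induced. As for SLC7A5, the GFP groups overlapped and the others did not.

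The rise of SLC3A2 on induction was 0.45 ± 0.08 on the log2 scale (edgeR adjusted p = 0.00275). Without doxycycline the YAP5SA line was higher by 0.71 ± 0.09 (adjusted p = 5.125e-04), and with doxycycline by 1.13 ± 0.09 (1.130e-06). The response in the GFP line was 0.03 ± 0.09. The interaction, 0.42 ± 0.12, missed the threshold with edgeR (adjusted p = 0.0593) and passed with DESeq2 (0.0146), with the replicate block (0.0181) and without replicate 3 of induced YAP5SA (0.0418). It missed in every other setting and with any other library left out.

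Per kilobase of exon, SLC7A5 was above SLC3A2 in all 12 libraries. The ratio of their CPM per kilobase was 3.12 ± 0.331 (SD, n = 3) in untreated GFP and 3.07 ± 0.0857 with doxycycline. It was 4.77 ± 0.497 in uninduced YAP5SA, with libraries from 4.21 to 5.16, and 6.24 ± 0.352 in induced YAP5SA, from 5.91 to 6.61. The highest GFP library had 3.38, so the 3 levels of the ratio did not overlap, apart from the GFP groups with each other. With 3 libraries against 3, a 2-sided exact permutation test cannot go below p = 0.1, and none was run on the ratio.

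The remaining partners of SLC3A2 differed from each other. SLC7A6, y+LAT2 (chr16:68264516-68301823, plus strand), was at 32.8, 36.8 and 38.0 CPM in untreated GFP and at 33.9, 40.8 and 42.5 CPM with doxycycline. It was at 56.9, 50.3 and 51.8 CPM in uninduced and at 84.5, 80.2 and 76.2 CPM in induced YAP5SA. All libraries of the YAP5SA line were above those of the GFP line, and the induced libraries were highest.

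SLC7A6 rose by 0.60 ± 0.08 on the log2 scale on induction (edgeR adjusted p = 2.647e-04). The difference without doxycycline was 0.56 ± 0.08 (adjusted p = 0.00157) and with doxycycline 1.04 ± 0.08 (1.024e-06). Its interaction was 0.48 ± 0.12 (adjusted p = 0.0283), but leaving out 1 library ended that call in 7 of 12 cases (0.39 to 0.48). SLC7A6 shares 3371 exonic bases with SLC7A6OS on the opposite strand, and the strand setting of the counting is not given in the sources used here. SLC7A6OS itself held 451 to 572 counts per library with no step between the groups.

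SLC7A11, the cystine carrier xCT (chr4:138164097-138242349, minus strand), was at 22.3, 20.1 and 16.8 CPM in untreated GFP and at 20.0, 21.3 and 16.9 CPM with doxycycline. It was at 30.4, 31.6 and 23.7 CPM in uninduced and at 26.3, 36.6 and 31.4 CPM in induced YAP5SA. The YAP5SA groups overlapped each other but lay above the GFP groups. On induction its change was 0.14 ± 0.15 on the log2 scale and did not pass (edgeR adjusted p = 0.571). With doxycycline in both lines it was higher in the YAP5SA line by 0.70 ± 0.15 (adjusted p = 0.00346). Without doxycycline the difference of 0.53 ± 0.15 narrowly missed the threshold (adjusted p = 0.0507) and passed with DESeq2 (0.00721), limma-voom (0.0480), the replicate block (0.0112) and without replicate 3 of uninduced YAP5SA (0.0248). It missed in every other setting and with any other library left out.

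SLC7A1, the arginine and lysine carrier CAT1 (chr13:29509410-29595688, minus strand), was at 229.8, 244.5 and 220.1 CPM in untreated GFP and at 223.8, 233.7 and 212.6 CPM with doxycycline. It was at 300.5, 302.8 and 253.3 CPM in uninduced and at 389.7, 457.2 and 366.6 CPM in induced YAP5SA. The 3 induced libraries were above the uninduced ones, which were in turn above all 6 GFP libraries. On induction SLC7A1 rose by 0.50 ± 0.09 on the log2 scale (edgeR adjusted p = 0.00154). With doxycycline in both lines it was higher in the YAP5SA line by 0.86 ± 0.09 (adjusted p = 1.074e-05). The interaction of 0.55 ± 0.12 passed (adjusted p = 0.0173), except with no filter on low counts (0.0652). The difference without doxycycline, 0.30 ± 0.09, was at the threshold (adjusted p = 0.0481) and was lost in 5 of 6 cases when 1 library was left out, and with upper-quartile scaling, limma-voom or another filter on low counts (adjusted p of 0.0508 to 0.186).

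SLC1A3, the glutamate and aspartate carrier EAAT1, was the member that rose most on induction. SLC1A3 (chr5:36606355-36688334, plus strand) was at 13.2, 11.2 and 13 CPM in untreated GFP, at 14.3, 10.7 and 13.2 CPM with doxycycline, and at 15.2, 15.4 and 14.0 CPM in uninduced YAP5SA. The induced libraries were at 32.3, 40.0 and 32.4 CPM. All other libraries were at or below 15.4 CPM. The uninduced YAP5SA libraries were all above the untreated GFP ones, as for 16.4% of all genes, and overlapped those of GFP with doxycycline.

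SLC1A3 rose 2.35-fold on induction, 1.23 ± 0.11 on the log2 scale (edgeR adjusted p = 1.314e-05). The interaction was of about the same size, 1.20 ± 0.16 (adjusted p = 9.809e-04). Without doxycycline the lines differed by 0.25 ± 0.11, which did not pass (adjusted p = 0.203), and with doxycycline by 1.46 ± 0.11 (6.637e-07). By calls alone SLC1A3 differed from SLC7A5 and SLC3A2: without doxycycline its difference between the lines was not called, and theirs were. Whether the members differ from each other in this was not tested.

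The neutral amino acid exchangers of the SLC1 family moved little. SLC1A4, ASCT1 (chr2:64988477-65023865, plus strand), was at 45.0, 47.8 and 42.3 CPM in untreated GFP and at 40.2, 46.6 and 45.5 CPM with doxycycline, at 61.1, 58.5 and 48.0 CPM in uninduced YAP5SA and at 48.7, 54.2 and 48.1 CPM in induced YAP5SA. Its uninduced libraries were above the GFP libraries without doxycycline, replicate 3 only just, and overlapped the induced ones. Without doxycycline SLC1A4 was higher in the YAP5SA line by 0.31 ± 0.09 on the log2 scale (edgeR adjusted p = 0.0475), but 5 of the 6 fits with 1 library left out and 5 of the other 8 settings did not call it (adjusted p of 0.0502 to 0.212). Its change on induction was -0.15 ± 0.09 (adjusted p = 0.27), and its difference with doxycycline 0.19 ± 0.09 (0.109).

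SLC1A5, the glutamine exchanger ASCT2 (chr19:46774883-46788594, minus strand), ranged from 139 to 156 CPM over the 6 GFP libraries, from 151 to 172 CPM in uninduced YAP5SA and from 158 to 182 CPM in induced YAP5SA. Its change on induction was 0.07 ± 0.06 on the log2 scale (edgeR adjusted p = 0.482). With doxycycline it was higher in the YAP5SA line by 0.18 ± 0.06 (adjusted p = 0.0267). That call ended without replicate 1 (0.0563) or 2 (0.0801) of GFP with doxycycline and without replicate 3 of induced YAP5SA (0.103).

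The sodium-coupled carriers SLC38A1 and SLC38A2, whose genes both lie on chromosome 12, were not called higher in any comparison. SLC38A1, SNAT1 (chr12:46183063-46270017, minus strand), was at 270.7, 270.9 and 266.6 CPM in untreated GFP and at 274.2, 267.1 and 267.6 CPM with doxycycline. It was at 237.3, 238.8 and 248.6 CPM in uninduced and at 237.1, 236.8 and 246.5 CPM in induced YAP5SA. Every library of the YAP5SA line was below every library of the GFP line, and the groups within a line overlapped.

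SLC38A1 was the only one of the 10 members called lower in any of the 5 comparisons. It was lower in the YAP5SA line by 0.16 ± 0.03 on the log2 scale without doxycycline (log2 fold change -0.16, edgeR adjusted p = 0.012) and by 0.17 ± 0.03 with it (-0.17, adjusted p = 0.00164). The first of these calls ended without replicate 1 (0.0563) or 2 (0.0537) of untreated GFP and without replicate 1 of uninduced YAP5SA (0.0715). On induction SLC38A1 changed by -0.01 ± 0.03, which did not pass. SLC38A2, SNAT2 (chr12:46358189-46372867, minus strand), ranged from 127.8 to 147.5 CPM over all 12 libraries and was not called in any comparison, with log2 differences from -0.01 ± 0.05 on induction to 0.05 ± 0.05 between the lines without doxycycline.

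**Figure D2:**
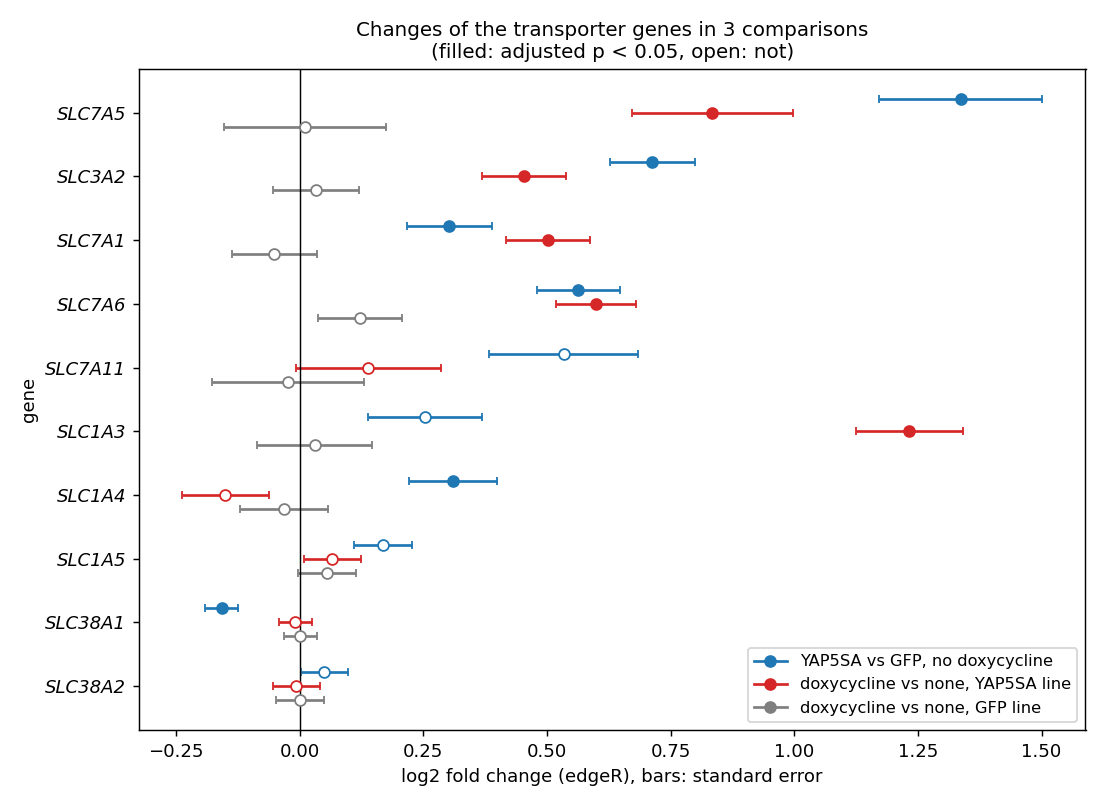
Log2 fold changes (horizontal axis) of the 10 transporter genes with standard errors (bars) in 3 comparisons: YAP5SA against GFP without doxycycline (blue), doxycycline against none in the YAP5SA line (red) and in the GFP line (grey), with filled points at an edgeR adjusted p below 0.05. SLC7A5 has its largest value between the lines (1.34), SLC1A3 on induction (1.23), and no grey point is filled.

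Counted over the 10 members, induction called 5 higher and 0 lower: SLC7A5, SLC3A2, SLC7A1, SLC7A6 and SLC1A3. The background was 19.1% of all 17470 genes called in either direction, 9.83% higher and 9.28% lower. Since the members were listed with earlier results known, these counts do not stand as independent evidence of a direction. These 5 were also the members whose induced libraries all lay above the uninduced ones, which held for 17.8% of all genes, with 16.8% below and 34.6% in all not overlapping. The median log2 fold change of the 10 was 0.30, against -0.00309 over all genes tested. Leaving out 1 library gave 5 or 6 called, the sixth being SLC1A4, lower (log2 fold change -0.245, adjusted p = 0.0472) without replicate 3 of uninduced YAP5SA.

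Doxycycline in the GFP line called 0 of the 10 with edgeR, and 0 at an unadjusted p below 0.05. Of all genes it called 0.0%, and 1.61% (282 genes) had an unadjusted p below 0.05. These values are from the fit without the replicate number, by which the GFP groups count as paired. DESeq2 also called 0 of the 10, as did limma-voom and the replicate block in the 6 GFP libraries alone, which was added after seeing the data. Of all genes that block called 20, with 6 higher and 14 lower, so the 0.0% does not show a lack of response. No member had GFP groups that did not overlap (6.22% of all genes did, 3.35% above and 2.87% below). The median log2 fold change of the members was 0.006, with values from -0.05 for SLC7A1 to 0.12 for SLC7A6.

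The interaction called 3 of the 10, SLC7A1, SLC7A6 and SLC1A3, all with a more positive change in the YAP5SA line, against 6.88% of all genes in either direction with 3.6% more positive and 3.28% more negative. With DESeq2 and with the replicate block 5 were called, SLC7A5 and SLC3A2 being the additions. Without 1 library the count was 2 to 4.

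Between the lines without doxycycline 5 members were higher in the YAP5SA line (SLC7A5, SLC3A2, SLC7A1, SLC7A6 and SLC1A4) and SLC38A1 was lower. The background was 8.65% of all genes, 6.04% higher and 2.61% lower. Libraries did not overlap for 9 of the 10 members, 8 above and 1 below, against 29.5% of all genes (16.4% above, 13.1% below). The count fell from 6 to 3 without replicate 1 or 2 of untreated GFP or replicate 1 of uninduced YAP5SA, each of which ended the calls of SLC7A1, SLC1A4 and SLC38A1. YAP1 itself differed by 0.19 ± 0.36 on the log2 scale between these groups and did not pass.

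With doxycycline in both lines 7 members were higher in the YAP5SA line and SLC38A1 was lower, against 38.3% of all genes called, 19.9% higher and 18.4% lower. The 7 were SLC7A5, SLC3A2, SLC7A1, SLC7A6, SLC7A11, SLC1A3 and SLC1A5. Libraries did not overlap for 9 of 10 members, 8 above and 1 below, against 48.9% of all genes (24.6% above, 24.3% below). The members' median was 0.78 on the log2 scale, and that of all genes was -0.00535.

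Ordered by CPM per kilobase, SLC7A5 was first in every group, at 56.6, 57.0, 143 and 255 in GFP without and with doxycycline, uninduced and induced YAP5SA. In the GFP groups it was followed by SLC1A5 (43.3 without doxycycline), SLC7A1 (30.1), SLC38A1 (26.9), SLC38A2 (20.4) and SLC3A2 (18.1), none of which overlapped its neighbour in the group without doxycycline. With doxycycline in the GFP line SLC38A2 and SLC3A2 overlapped. In uninduced YAP5SA SLC3A2 stood next after SLC7A1 (29.7), above SLC38A1 and SLC38A2, and in induced YAP5SA it was again above both (40.7).

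In induced YAP5SA the libraries of SLC7A1 (52.6 CPM per kilobase) and SLC1A5 (51.0) overlapped, and SLC7A6 (10.6) had passed SLC1A4 (7.26). The lowest levels belonged to SLC7A11 and SLC1A3, near 2 CPM per kilobase in GFP, where they overlapped. After induction SLC1A3 (5.57) lay above SLC7A11 (3.26) without overlap. Lengths are of the union of annotated exons, so a gene with unused exons is understated.

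By correlation of log2 CPM over the 12 libraries, SLC3A2 was the gene most like SLC7A5 of 17469 by Pearson's r (0.997). It was followed by TCF21, a transcription factor gene of podocyte and mesenchymal development (0.994), the tissue factor gene F3 (0.993), RMDN3, which encodes a mitochondrial outer membrane protein (0.993), and the glycosyltransferase gene MGAT5 (0.992). Among these 5 the order differed by Spearman's rho, with TCF21 (0.979) and MGAT5 (0.965) above SLC3A2 (0.958). These 12 points come from the same libraries and share 4 group means, so the values describe the order of groups and libraries and carry no p. Among members, SLC7A1 ranked 149th (0.967), SLC7A6 488th (0.937), SLC7A11 646th (0.925) and SLC1A3 1280th (0.877). SLC38A1 stood near the other end (-0.934).

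The 5 genes differed in size of change. F3 was 1.32 ± 0.19 higher on the log2 scale in the YAP5SA line without doxycycline (edgeR adjusted p = 0.00323) and its 0.59 ± 0.18 on induction missed the threshold (0.0534). TCF21 was higher by 0.89 ± 0.16 without doxycycline and rose by 0.67 ± 0.15 on induction (adjusted p = 0.00697). MGAT5 differed by 0.49 ± 0.05 and rose by 0.29 ± 0.05 on induction, and RMDN3 differed by 0.22 ± 0.04 without doxycycline but did not pass on induction (0.11 ± 0.04, adjusted p = 0.0786). YAP1 did not follow this order over the libraries: replicate 1 was the lowest for YAP1 in uninduced YAP5SA but not for SLC7A5, and replicate 2 was the highest of the induced libraries for SLC7A5 but not for YAP1.

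**Figure D3:**
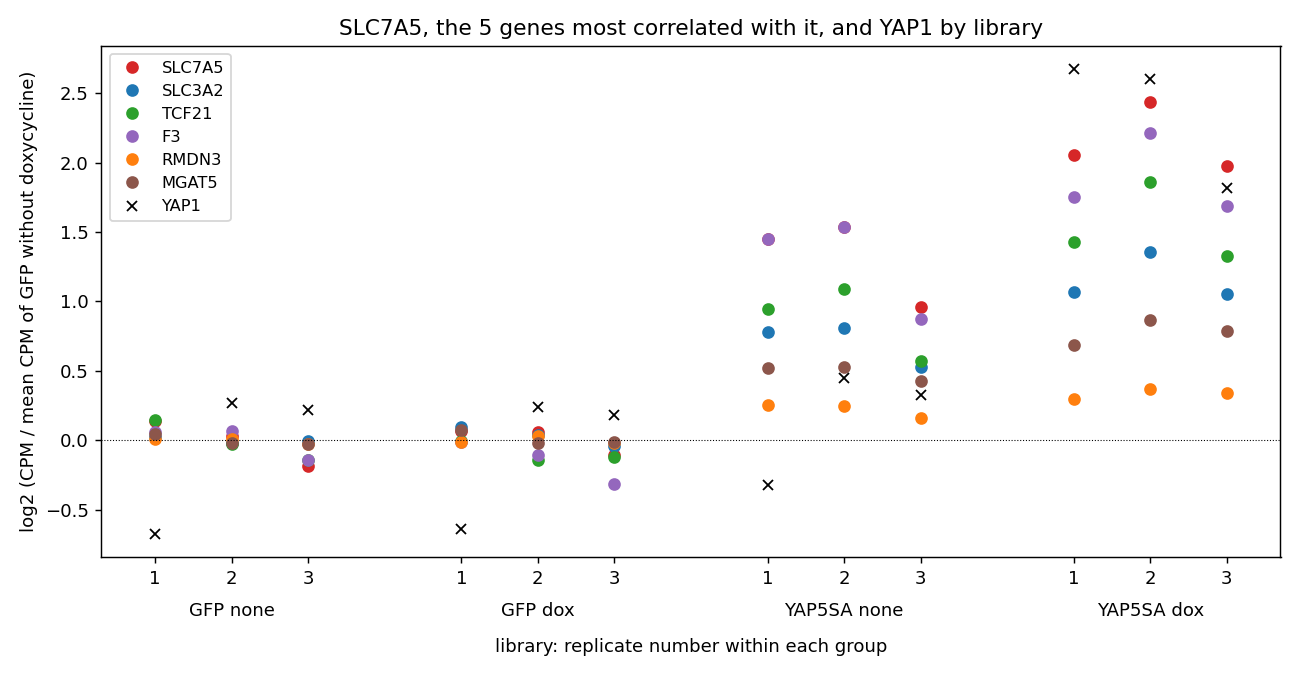
Log2 ratio of each library's CPM to the mean of untreated GFP (vertical axis) for SLC7A5, the 5 genes most correlated with it, and YAP1 (crosses), by replicate within each group (horizontal axis). SLC7A5 and F3 lie close together in uninduced YAP5SA, where replicate 3 is lower, and YAP1 is below SLC7A5 in all 3 libraries there.

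Other amino acid transporters, a list of 36 of which 24 had enough counts to test, had 1 call in each direction on induction, where 19.1% of all genes were called. SLC7A2, a cationic amino acid carrier related to SLC7A1, rose from 3.67 ± 0.384 to 7.87 ± 1.19 CPM (SD, n = 3), a log2 fold change of 1.10 ± 0.15 (edgeR adjusted p = 2.510e-04), and it passed in the interaction (1.04 ± 0.22, adjusted p = 0.014). SLC6A6, the taurine transporter, was at 101, 105 and 97.3 CPM uninduced and at 29.4, 57.3 and 57.3 CPM induced (log2 fold change -1.07 ± 0.22, adjusted p = 0.00769), with replicate 1 the lowest. Its GFP libraries were at 106 to 136 CPM. The median log2 fold change of the 24 on induction was 0.03.

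Without doxycycline, where 8.65% of all genes were called, 1 of the 24 differed: SLC66A1, a lysosomal exporter of cationic amino acids (0.26 ± 0.06, adjusted p = 0.0208). With doxycycline in both lines 8 of 24 were higher and 4 lower in the YAP5SA line, against 19.9% and 18.4% of all genes. The glutamate carrier gene SLC1A1 (0.74 ± 0.17), SLC7A2 (1.29 ± 0.15), the aromatic amino acid carrier gene SLC16A10 (1.40 ± 0.27), SLC36A1 (0.32 ± 0.09), SLC36A4 (0.21 ± 0.07), SLC38A4 (1.37 ± 0.30), SLC38A7 (0.18 ± 0.05) and SLC66A1 (0.23 ± 0.06) were higher. SLC16A10 and SLC38A4 were low, at 1.61 and 0.895 CPM in induced YAP5SA and 0.608 and 0.343 CPM in GFP with doxycycline. SLC6A6 (-1.37 ± 0.22), SLC7A7 (-0.91 ± 0.25), SLC7A8 (-1.55 ± 0.25) and SLC38A6 (-0.57 ± 0.12) were lower. SLC7A7 and SLC7A8, light chains of SLC3A2 like SLC7A5, were also low, at 1.22 and 0.763 CPM in induced YAP5SA. The call of SLC36A4 ended with upper-quartile scaling, with the groups compared alone and without replicate 1 or 3 of GFP with doxycycline or replicate 1 or 2 of induced YAP5SA (adjusted p of 0.0582 to 0.131), and that of SLC7A7 without replicate 3 of GFP with doxycycline (0.0537).

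ATF4 and amino acid response genes, a list of 22, had 3 higher and 2 lower on induction, with a median log2 fold change of -0.02. The 5 calls among 22 are near the 19.1% of all genes called. EIF2AK4, the GCN2 kinase that senses uncharged tRNA, rose by 0.49 ± 0.04 (edgeR adjusted p = 5.554e-06), and its libraries went from 169 to 181 CPM uninduced to 238 to 247 CPM induced. The phosphatase subunit gene PPP1R15A rose by 0.31 ± 0.05 and CHAC1, which degrades glutathione, by 0.38 ± 0.09. The transcription factor genes CEBPB and ATF5 fell by 0.38 ± 0.06 (log2 fold change -0.38) and 0.20 ± 0.05 (-0.20). ATF4 itself did not pass (0.09 ± 0.04, adjusted p = 0.107). Among others of the list, named after their values were seen, ASNS (0.34 ± 0.26), PSAT1 (0.01 ± 0.05), PHGDH (-0.08 ± 0.18) and TRIB3 (-0.19 ± 0.08) did not pass either. With doxycycline in both lines 4 of the 22 were higher and 2 lower in the YAP5SA line, where 38.3% of all genes were called. CHAC1 (0.68 ± 0.09) was among the higher and TRIB3 (-0.34 ± 0.08) among the lower. In the interaction EIF2AK4 (0.50 ± 0.05) and PPP1R15A (0.34 ± 0.07) were more positive and CEBPB (-0.44 ± 0.09) more negative. ATF5 did not pass there (-0.11 ± 0.07, edgeR adjusted p = 0.46). With doxycycline in the GFP line ATF5 changed by -0.10 ± 0.05 and CEBPB by 0.07 ± 0.06, neither of them called. Without doxycycline EIF2AK4 (0.29 ± 0.04), CHAC1 (0.37 ± 0.09) and MTHFD2 were higher in the YAP5SA line and none was lower. That call of CHAC1 ended with the groups compared alone (edgeR adjusted p = 0.0637) and without replicate 1 or 2 of untreated GFP or replicate 1 or 3 of uninduced YAP5SA (0.0819 to 0.128).

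Genes of amino acid sensing by mTORC1, a list of 27, had 0 higher and 5 lower on induction, with a median of -0.07. The 5 calls among 27 are near the 19.1% of all genes called in either direction. All 5 were lower, where 9.28% of all genes were called lower. DDIT4, an inhibitor of mTORC1, was at 27.0, 35.6 and 27.5 CPM uninduced and at 13.5, 6.0 and 7.85 CPM induced, and fell by 1.72 ± 0.24 on the log2 scale (log2 fold change -1.72, edgeR adjusted p = 9.648e-04). SESN3 (-0.68 ± 0.08) and SESN1 (-0.46 ± 0.08), of the sestrin family that includes a leucine sensor, also fell. So did FLCN (-0.26 ± 0.07) and the arginine sensor gene CASTOR1 (-0.75 ± 0.22), which was at about 1 CPM. The FLCN call was lost in 4 of 6 cases when 1 library was left out and with the groups compared alone (adjusted p of 0.0609 to 0.0906). FLCN was also lower with doxycycline in the GFP line (-0.16 ± 0.07, not called). Its interaction missed the threshold (-0.10 ± 0.10, edgeR adjusted p = 0.613), as did that of CASTOR1 (-0.75 ± 0.30, 0.178). In the interaction DDIT4 (-1.63 ± 0.33), SESN3 (-0.74 ± 0.12) and SESN1 (-0.49 ± 0.12) passed, though DDIT4 did not with no filter on low counts (adjusted p = 0.0572). Without doxycycline 0 of the 27 passed with edgeR, and 4 had an unadjusted p below 0.05, as did 23.5% of all genes. With doxycycline in both lines 4 of the 27 were higher and 8 lower in the YAP5SA line, against 19.9% and 18.4% of all genes.

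Of 18 cytosolic aminoacyl-tRNA synthetases, which charge tRNA with amino acids, 1 rose (YARS1, 0.14 ± 0.04) and 1 fell (QARS1, -0.10 ± 0.03) on induction, with a median log2 fold change of 0.07, where 19.1% of all genes were called. Both calls were close to the threshold (edgeR adjusted p = 0.0161 and 0.0491), and each ended under some other settings: YARS1 with no filter on low counts (0.0503) or the groups compared alone (0.0571), and QARS1 with RLE scaling (0.0593), DESeq2 (0.0551), no filter (0.329), the groups compared alone (0.121) or without any 1 of the YAP5SA libraries (0.0744 to 0.194). CARS1 (0.13 ± 0.04) and MARS1 (0.12 ± 0.04) narrowly missed the threshold (edgeR adjusted p = 0.0506 and 0.0540). Both passed, higher, with RLE scaling, DESeq2, the stricter filter and the replicate block (0.0262 to 0.0453 for CARS1 and 0.0230 to 0.0480 for MARS1). Of 18 genes of cystine, glutathione and glutamine use, 4 rose and 3 fell, with a median of -0.02, against 9.83% of all genes called higher and 9.28% lower. The largest rise was that of CTH, which makes cysteine from cystathionine (6.88 ± 0.771 to 12.9 ± 0.863 CPM, SD, n = 3, log2 fold change 0.90 ± 0.13), with GCLC (0.25 ± 0.08), NFE2L2 (0.15 ± 0.04) and GOT2 (0.14 ± 0.04). The NFE2L2 call ended with the groups compared alone (adjusted p = 0.0539). NQO1 (-0.63 ± 0.12), GSR (-0.23 ± 0.05) and GPX4 (-0.24 ± 0.07) fell. In the GFP line 0 genes of each of these 5 lists passed on doxycycline with edgeR. An unadjusted p below 0.05 was found for 2 of all of them, FLCN (lower) and NPRL2 (higher), both in the mTORC1 list.

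**Figure D4:**
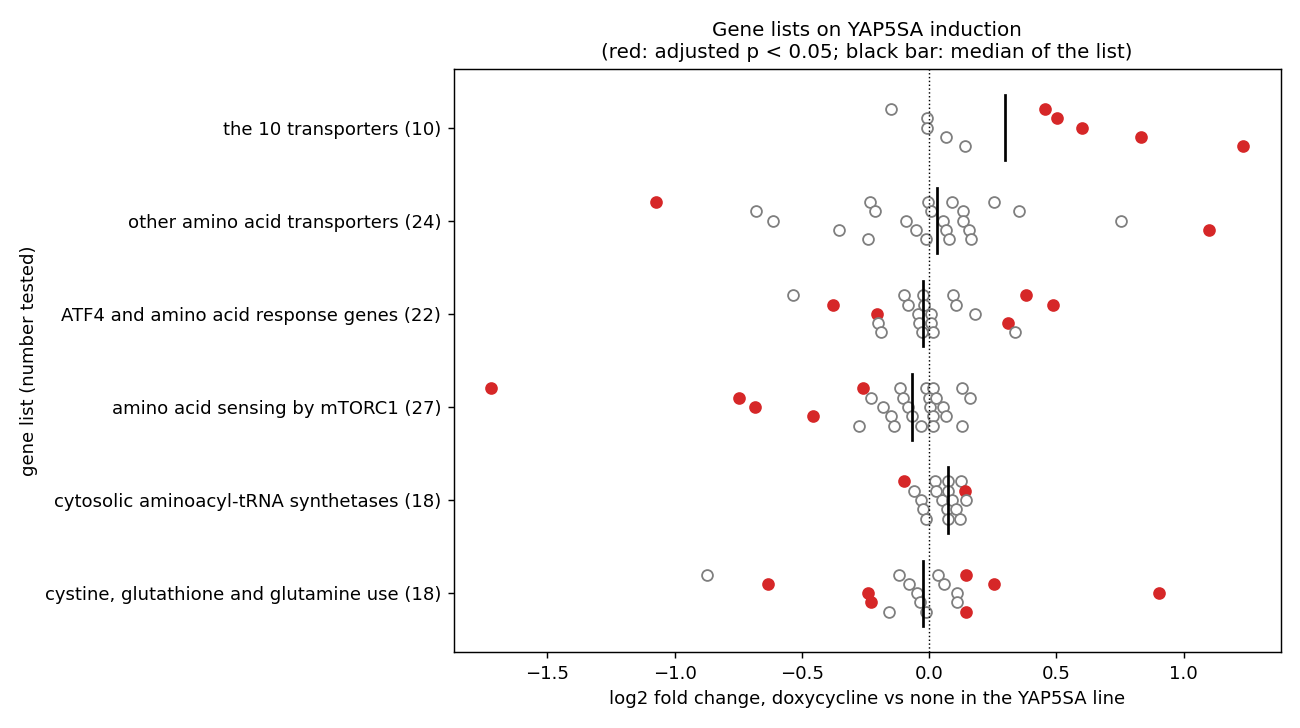
Log2 fold changes on induction in the YAP5SA line (horizontal axis) of every tested gene of the 10 transporters and of 5 other lists (rows, number tested in brackets), 1 point per gene, red at an edgeR adjusted p below 0.05, with a black bar at the median of each list. The transporter median lies at 0.30 and the medians of the other lists lie between -0.07 and 0.07.

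Some markers of other cell types differed together with the transporters, and others of the same lists did not. PDGFRB, a mesangial and fibroblast marker, was at 5.23 to 6.96 CPM in the 6 GFP libraries, at 10.9 to 14.1 CPM in uninduced and at 21.5 to 28.5 CPM in induced YAP5SA. It was the only 1 of the 4 tested genes of its list called on induction, where the median log2 fold change was -0.08 and the lowest -0.46. The keratin gene KRT18, in the parietal epithelial list, was at 253 to 305 CPM in GFP, 505 to 571 CPM in uninduced and 701 to 903 CPM in induced YAP5SA. Of the 7 genes of that list KRT18 rose on induction and KRT19 and CD44 fell, with a median of -0.12. KRT19 was at 782 to 891 CPM uninduced and at 556.5 to 562.1 CPM induced, and CD44 at 902 to 999 and at 717 to 722 CPM. Without doxycycline 2 of the 7 were called higher in the YAP5SA line and 1 lower, where 8.65% of all genes were called. The higher were KRT18 and KRT8 (1189 to 1270 CPM, against 821.9 to 929.7 CPM in untreated GFP). The lower was PAX8 (400.4 to 464.3 CPM, against 540.2 to 608.1 CPM in untreated GFP). The summed mesangial and fibroblast markers, 5 genes led by COL1A1, ranged from 1306 to 2387 CPM in untreated GFP and from 1274 to 2580 CPM in induced YAP5SA, and the 7 parietal epithelial markers from 4073 to 4209 and from 4184 to 4399 CPM. DES was below 1 CPM in every library. Of the 8 podocyte markers with enough counts to test, 0 rose and 2 fell on induction (KIRREL1 and NES). For the marker counts on induction the background was 19.1% of all genes called, 9.83% higher and 9.28% lower. The part of these differences in those of the transporters was not tested.

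Reads of neighbouring genes could enter some of these rows. SLC7A5 shares 271 exonic bases with an antisense transcript, AC126696.2, which held 3 to 8 counts per library in GFP, 9 to 25 in uninduced and 24 to 44 in induced YAP5SA, where SLC7A5 held between 5977 and 36899 counts over the 12 libraries. The pseudogenes SLC7A5P1 and SLC7A5P2 held 0 counts in all 12 libraries. How reads that fit both gene and pseudogene were treated is not given in the sources used here. SLC7A11 shares 865 exonic bases with SLC7A11-AS1 (0 to 5 counts per library), and SLC1A5 780 with AC008622.2 (12 to 35 counts).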

How the data were processed

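The authors deposited 1 table of raw counts (whole reads per gene, not normalized) covering the 12 libraries. Per the submitters' processing notes, the build was GRCh38 (hg38) and the tools were DRAGEN, featureCounts, Subread, limma and DESeq2. Which tool did what, in which version and with which strand setting, was not given in the sources used here. Per the labels' protocols, libraries were made with a poly(A) mRNA kit. Of 62656 rows, 24935 had no count, 62639 matched the identifier table and 58220 were in GENCODE 29, which gave positions and exon lengths.

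All 12 libraries entered 1 edgeR fit (edgeR 4.0.16, R 4.3.3): filterByExpr on the 4 groups (17470 genes), TMM scaling and a robust quasi-likelihood fit with 8 residual degrees of freedom, with p-values adjusted over all genes tested. The common biological coefficient of variation was 7.48%. The procedure was tested on simulated data first. Intervals and errors cover the spread of 3 libraries per group. Compared were the effect of doxycycline in each line, the difference of these effects (the interaction), and the lines with each other, untreated and treated.

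The 10 members and the other gene lists were chosen with earlier results of these data known. Named genes are the members, YAP1, the other transporters called on induction, in the interaction or between the lines with doxycycline, up to 4 genes per other list with the smallest p on induction and up to 2 in each other comparison, and the 5 genes most correlated with SLC7A5 (log2 CPM, prior count 2). Further genes named in counts of 5 or fewer, or set beside them (ATF4 and others of its list, marker genes), were chosen after their values were seen. Some podocyte marker genes are not reported here. Promoter windows were read from a RefSeq table on GRCh38.p14.

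Scaling was also done by RLE or upper quartiles, the filter dropped or set at 1 CPM in 6 libraries, and the test replaced by DESeq2 1.42.0 or limma-voom (limma 3.58.1). Fits were also made on the groups compared alone, with the replicate number as a block, and leaving out each library. To check whether replicate numbers in the labels pair the libraries, deviations from the group mean were correlated by number. The GFP groups gave 0.23, 0.42 and 0.41 and count as paired. In each other comparison replicate 1 was below 0.1 (for example -0.12 in the YAP5SA line), so it counts as unpaired. Replicates 2 and 3 were above 0.1 in all of these (0.35 and 0.33 in the YAP5SA line). The rule therefore does not show that libraries of the same number are independent.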

Additional observations from a re-analysis of the deposited data

Results flagged for a closer look

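The lines responded differently to doxycycline in these genes by the interaction test of edgeR, with values given as the log2 change in the YAP5SA line minus that in the GFP line. Among the members these were SLC1A3 (1.20), SLC7A1 (0.55) and SLC7A6 (0.48), each higher in all 3 induced than in all 3 uninduced libraries. YAP1, the label check, gave 2.24. SLC7A2, the cationic carrier related to SLC7A1, gave 1.04. Of the amino acid response genes EIF2AK4 gave 0.50, PPP1R15A 0.34 and CEBPB -0.44. Of the mTORC1 sensing genes DDIT4 gave -1.63, SESN3 -0.74 and SESN1 -0.49. NQO1, an antioxidant enzyme gene, gave -0.68, and MGAT5, whose pattern is like that of SLC7A5, gave 0.27. Groups of 3 libraries were too small for a test of single outlying libraries.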

How the results depend on the processing

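The 5 rises on induction kept direction and call in each alternative run. Of the members' log2 fold changes over all comparisons and the settings that kept all libraries, 376 kept direction and side of the threshold, 10 lost the call, 11 gained it and 3 changed sign, all within 0.01 of 0: in the GFP line SLC38A1 and SLC38A2 with no filter on low counts (-7.359e-04 and -0.00145) and SLC38A2 with limma-voom (-1.279e-04). The cause of the lost and gained calls was not tested.

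The replicate block over 12 libraries raised the genes called from 1202 to 2418 in the interaction and from 1512 to 2994 between the lines without doxycycline, the members called in the interaction from 3 to 5 (5 with DESeq2 too), and the genes called in the GFP line from 0 to 1. There DESeq2 called 1, no filter 3, and the block in the 6 GFP libraries alone, added after seeing the data, 20 genes (6 higher, 14 lower) and 0 members. The block ended no member's call. Within the YAP5SA line the replicate numbers did not meet the rule for pairing, because of replicate 1 alone.

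Leaving out 1 library gave 750 to 1387 genes and 2 to 4 members in the interaction, 607 to 1451 genes and 3 to 7 members without doxycycline. The lowest gene counts in the interaction left out untreated GFP replicate 3 (768), treated GFP replicate 1 (750) or uninduced YAP5SA replicate 1 (781). Between the untreated lines they left out GFP replicate 1 (718) or 2 (678) or YAP5SA replicate 1 (607). Signs turned for the following values, none of which was called. In the GFP line the ranges were -0.075 to 0.084 for SLC7A5, -5.703e-04 to 0.071 for SLC3A2, -0.13 to 0.072 for SLC7A11, -0.060 to 0.14 for SLC1A3, -0.075 to 0.031 for SLC1A4, -0.012 to 0.0083 for SLC38A1, -0.029 to 0.038 for SLC38A2 and -0.27 to 0.21 for YAP1. On induction they were -0.025 to 0.016 for SLC38A1 and -0.048 to 0.027 for SLC38A2. In the interaction they were -0.038 to 0.068 for SLC1A5, -0.026 to 0.014 for SLC38A1 and -0.049 to 0.027 for SLC38A2. YAP1 without doxycycline ranged from -0.059 to 0.39. The YAP1 interaction lost its call in 10 of 12 such fits and with no filter on low counts (2.25), that of MGAT5 in 10 of 12, of SESN1 in 4 of 12 and of NQO1 in 4 of 12 and with no filter (-0.68). With 2 libraries left in a group, the spread is taken from the others.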
